A study of Mus musculus with 2 samples.

Results

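The Sp and Klf genes described here encode transcription factors that bind GC-rich DNA, and they are relatives of Sp5 and Sp8, the pair of genes targeted in the study. They were Sp1, Sp2, Sp3, Sp4, Klf2, Klf3, Klf4, Klf5, Klf6 and Klf9, taken by gene symbol from the deposited counts, and all 10 were found among 32285 genes. The files hold 26 genes of the Sp and Klf families in all. The 10 genes were measured in mouse gastruloids, aggregates of embryonic stem cells that begin to form germ layers and a body axis in culture. About 300 embryonic stem cells per well, either the wild type R1 line or cells labelled as Sp5/8 double knockout, were grown in N2B27 medium on ultra-low attachment plates. Both groups were exposed to 3 µM CHIR, a GSK3 inhibitor that switches on Wnt signalling, during the 12 hours between day 2 and harvest at day 2.5. Aggregates were pooled and each genotype gave 1 single-cell 3′ RNA library, so no difference has a replicate check, no p-value is given, and every interval covers counting error only. The labels name neither the mutations nor the number of knockout clones.

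The labels were checked on the targeted genes. The library labelled wild type, called the wild-type-labelled library below, held Sp5 at 109.1 CPM, which are UMI counts scaled to the same total in every sum of cells. The library labelled double knockout, called the knockout-labelled library, held it at 478.7 CPM. Sp8 was at 20.8 and 40.2 CPM. A UMI is a tag that marks 1 captured RNA molecule. Both targeted genes were thus higher in the knockout-labelled library, with log2 ratios of 2.13 (95% interval 2.10 to 2.16) and 0.95 (0.87 to 1.03). Counts at the 3′ end do not separate intact from edited transcripts. Whether the 2 labels are exchanged was not tested either, and an exchange would turn every direction between the libraries. Directions are therefore given between the 2 libraries as labelled, and none is read as an effect of losing Sp5 and Sp8.

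Sp and Klf proteins share a conserved group of zinc fingers at the C terminus that recognise GC boxes and the related GT or CACCC boxes in promoters. Several family members can occupy the same site, and activators such as Sp1 can be displaced there by repressors. Sp5 is a Wnt target gene in the early embryo and binds such sites, while Klf2, Klf4 and Klf5 support self-renewal of naive mouse embryonic stem cells and decline as cells become primed for differentiation. RNA levels were measured here and binding was not.

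The promoters of the members that differed most between the libraries are shown first, searched for the kind of site that the encoded proteins bind. RefSeq windows of 250 bases before the gene start on GRCm38.p6 were available for 9 of the 10 members, 12 windows in all. Klf5 had no entry. The GC box was searched as GGGCGG or its reverse complement CCGCCC, and matches are in capitals below. The windows belong to Klf2 (chr8:72318812-72319061, plus strand), Klf6 (chr13:5861239-5861488, plus strand), Klf9 (chr19:23140976-23141225, plus strand) and the most upstream start of Sp3 (chr2:72980447-72980696, minus strand), each read 5′ to 3′ toward the start site.
Klf2: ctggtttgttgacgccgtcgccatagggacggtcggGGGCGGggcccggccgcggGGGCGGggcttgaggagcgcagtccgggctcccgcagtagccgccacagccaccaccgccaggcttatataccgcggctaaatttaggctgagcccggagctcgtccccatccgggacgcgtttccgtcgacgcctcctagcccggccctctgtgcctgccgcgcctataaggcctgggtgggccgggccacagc
Klf6: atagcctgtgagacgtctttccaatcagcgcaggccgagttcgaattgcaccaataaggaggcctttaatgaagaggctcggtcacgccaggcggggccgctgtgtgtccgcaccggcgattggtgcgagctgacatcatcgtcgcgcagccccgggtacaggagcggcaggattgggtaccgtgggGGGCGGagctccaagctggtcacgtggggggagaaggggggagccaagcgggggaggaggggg
Klf9: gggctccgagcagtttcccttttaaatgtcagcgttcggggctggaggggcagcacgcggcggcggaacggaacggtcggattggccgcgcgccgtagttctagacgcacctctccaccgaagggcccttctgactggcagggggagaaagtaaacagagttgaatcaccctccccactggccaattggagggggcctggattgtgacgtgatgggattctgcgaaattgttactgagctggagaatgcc
Sp3: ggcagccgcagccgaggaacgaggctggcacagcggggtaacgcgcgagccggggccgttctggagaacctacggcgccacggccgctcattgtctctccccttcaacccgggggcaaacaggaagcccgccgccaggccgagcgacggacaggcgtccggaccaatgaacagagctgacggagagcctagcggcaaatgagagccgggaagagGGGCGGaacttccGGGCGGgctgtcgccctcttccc

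The Klf2 window held 2 GC boxes, the Klf6 window 1, the Klf9 window 0 and this Sp3 window 2. The window of another Sp3 start, not shown, held 5. Of the 12 windows, 9 held at least 1 GC box, and they belonged to 8 of the 9 genes. Among the other members, Sp1 and Sp4 had 4 each, Klf4 had 4 and Klf3 had 6, while the 3 windows of Sp2 had 0, 1 and 0. For comparison, 32.7% of 32851 RefSeq windows of the same length held a GC box. Those windows were not matched to the members in GC content. No window of a member held the GT box GGGTGTG (reverse complement CACACCC, in 6.93% of all windows) or the TCF/LEF motif CTTTGAT (reverse complement ATCAAAG, in 3.21%). Only these exact letters were searched, so other forms of the GT or CACCC box were not counted. A match describes letters in these windows and not a bound site.

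Cells were barcodes with at least 2500 UMIs, at least 1000 genes and at most 10% mitochondrial UMIs. This kept 8707 cells of the wild-type-labelled library, with a median of 10571 UMIs and 3275 genes, and 10587 cells of the knockout-labelled library, with 8637 UMIs and 2884 genes. The labels state 9238 and 11190 cells with medians of 5333 and 5398 genes, so the kept cells had fewer genes each than the labels state. The sets of cells differ, and the reason for the lower gene numbers was not tested. The 2 libraries shared 27 cell barcodes, 0.310% and 0.255% of their cells. The member sums rested on 549 UMIs (Klf5) to 11210 UMIs (Klf9) per library. Cells were clustered jointly without the members, Sp5, Sp8 and Irx3, and 3 classes that share no cell were formed. Naive-like cells were the cells of cluster 6, 145 in the wild-type-labelled library and 172 in the other. Irx3-positive cells had at least 1 Irx3 UMI after thinning each cell to 2500 UMIs and lay outside cluster 6 (416 and 224). Streak-like cells were those of cluster 0 without such a UMI (2399 and 4679).

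The naive-like and streak-like classes were named by the marker lists and the 1.5-fold rule used here. The marker counts below thus describe the naming and are not a separate check. In the naive-like cells 8 of 9 naive markers were at least 1.5-fold above the other cells, with Zfp42 at 243.6 and 156.8 CPM and Dppa3 at 78.7 and 91.0 CPM, but Nanog was at 83.1 and 86.8 CPM, below its level in all cells (116.2 and 128.8). Primed epiblast markers were not low there, summing to 1410 and 1459 CPM against 1254 and 1356 CPM in the other cells. The streak-like cells had 11 of 11 streak markers raised in the wild-type-labelled library and 6 of 11 in the knockout-labelled library. Of the Irx3-positive cells, 88.5% and 94.6% passed the gate with a single thinned Irx3 UMI. With another random seed, 38.7% and 34.4% of these same cells had a thinned Irx3 UMI. Over all cells the share with an Irx3 UMI was 4.78% and 2.13% after thinning, and 15.5% and 6.21% without it. Which cells entered this class thus depended in large part on the random draw.

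Between the libraries, Klf2 was the member with the largest difference, and Sp3, Klf6 and Klf9 were also lower in the knockout-labelled library. No member was higher by the same criterion, which asked for a log2 ratio of at least 0.25 in size and an interval without 0. Thus 4 of 10 members were lower and 0 higher. Of the 12406 genes with a mean of at least 1 CPM, 7.84% were lower, 5.02% were higher and 12.9% passed in either direction. The median log2 ratio of the members was -0.17, against -0.03 for all genes tested.

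**Figure D1:**
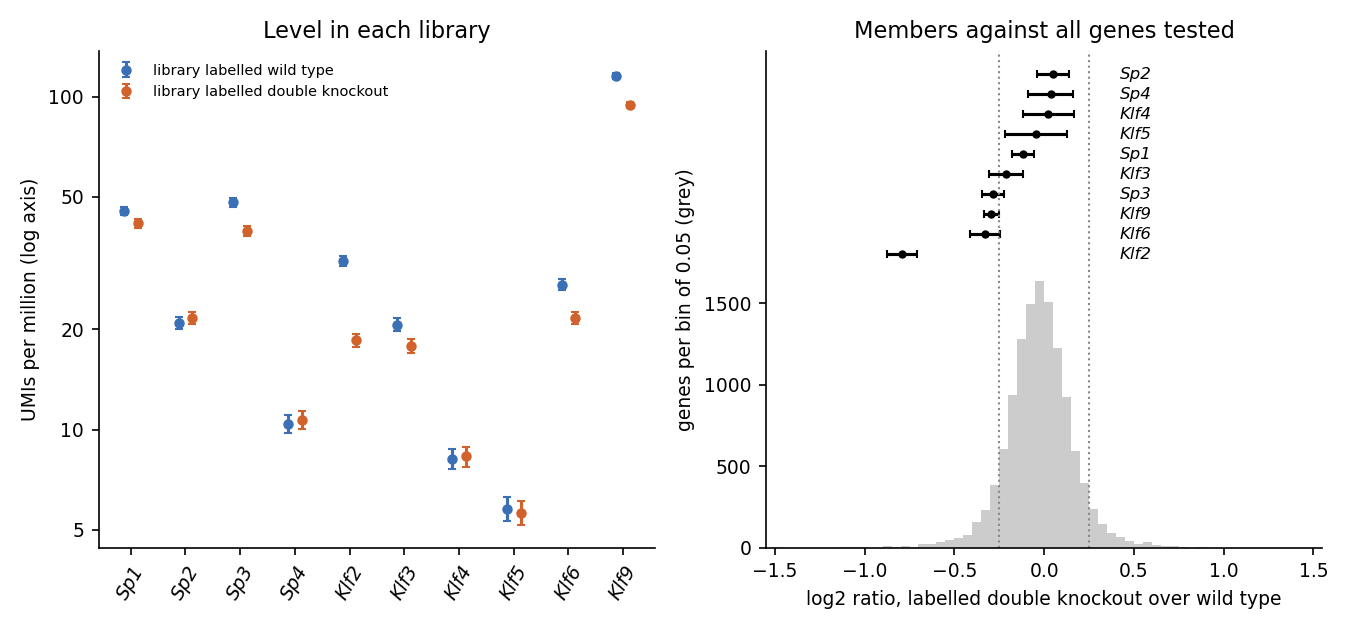
Level of each member in both libraries (left; points are CPM over all kept cells on a log axis, bars are exact Poisson 95% intervals) and log2 ratio of the libraries (right; black points with exact conditional 95% intervals) above the histogram of all genes tested, where dotted lines mark -0.25 and 0.25. Klf2 lies farthest from the bulk of genes at -0.79, and 6 members lie between the lines.

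Over all cells, the Sp genes were close in both libraries apart from Sp3. Sp1, a widely expressed activator, was at 45.3 CPM in the wild-type-labelled library and 41.7 CPM in the other, a log2 ratio of -0.12 (-0.18 to -0.06). Sp3 (chromosome 2, 72936427 to 72980446 in GENCODE M21 on GRCm38), which is made as long activating and short repressing isoforms from the same GC box binding domain, was at 48.1 and 39.5 CPM, a log2 ratio of -0.28 (-0.35 to -0.22). Gene-level counts do not separate those isoforms. Sp2, a more distant family member, was at 20.9 and 21.7 CPM, with a ratio of 0.05 (-0.04 to 0.14). Sp4, a close relative of Sp1 best known in neurons, was at 10.4 and 10.7 CPM, with a ratio of 0.04 (-0.09 to 0.16). The intervals of Sp2 and Sp4 thus leave out a change of 0.25 in either direction. In the annotation Sp3 overlaps Gm25960 and Gm11084 on its own strand and Sp3os and Hspe1-ps5 on the other, and Sp2 overlaps D030028A08Rik on the other strand. Whether the counting used strand is not given in the sources used here, so the Sp2 and Sp3 values are less certain, as are those of Klf3, which overlaps C230096K16Rik and the antisense gene Gm20033.

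The Klf genes spread more widely. Klf2 (chromosome 8, 72319033 to 72321656), a naive pluripotency factor that is also rapidly induced by mechanical and other stimuli, was at 32.2 CPM (31.1 to 33.3) in the wild-type-labelled library, on 3125 UMIs. The knockout-labelled library had 1812 Klf2 UMIs, which is 18.6 CPM (17.7 to 19.4). Klf2 was thus 1.73-fold lower, a log2 ratio of -0.79 (-0.88 to -0.71), and 0.31% of the genes tested had a lower ratio. Klf6 (chromosome 13, 5861482 to 5870394), an early response gene of many cell types, was at 27.3 and 21.7 CPM, a ratio of -0.33 (-0.41 to -0.25). Klf9 (chromosome 19, 23141226 to 23168134), a hormone-responsive factor that recruits the Sin3 corepressor, was at 115.4 and 94.1 CPM, a ratio of -0.29 (-0.33 to -0.25). Klf3, a repressor that works with CtBP, was at 20.7 and 17.8 CPM, and its ratio of -0.21 (-0.31 to -0.12) stayed inside the limit. The other naive factors did not move with Klf2. Klf4 was at 8.17 and 8.31 CPM, with a ratio of 0.02 (-0.12 to 0.17), and Klf5 at 5.79 and 5.62 CPM, with a ratio of -0.04 (-0.22 to 0.13).

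With every cluster given the same weight in both libraries, Klf2 remained lower at -0.47 (-0.56 to -0.38), while Sp3, Klf6 and Klf9 were at -0.24, -0.13 and -0.18 and no longer passed. Sp3 moved little and fell just short of the limit, and the ratios of Klf6 and Klf9 were clearly closer to 0. Without cells low in chromosome 6 or 11 transcripts, described below, Sp3 was at -0.23 and did not pass.

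Within clusters, Klf2 was lower in the knockout-labelled library in 8 of 9, and passed in 6, namely clusters 0, 1, 2, 3, 5 and 6. In cluster 1, an unnamed cluster led by Irx3, Gbx2, Meis2 and Irx5, it was at 52.3 and 38.6 CPM, a ratio of -0.44 (-0.57 to -0.31; 5.83% of genes lower by the criterion). In cluster 0, the streak-like cluster, it was at 13.6 and 10.98 CPM, a ratio of -0.30 (-0.49 to -0.12; 5.53% of genes lower). In cluster 2, unnamed and led by Cdc6 and Ccne2, it was at 16.2 and 11.4 CPM, a ratio of -0.51 (-0.78 to -0.24; 5.77% lower). These 3 clusters differed in Klf2 level but shared its direction. The ratio was lowest in cluster 3, which is led by Nfib, Cdx2 and T: 24.2 against 7.91 CPM, from 304 and 30 UMIs, a ratio of -1.59 (-2.20 to -1.07; 7.3% lower). In the neural-like cluster 5, led by Pou3f2, it was at 19.5 and 9.53 CPM, a ratio of -1.02 (-1.86 to -0.26; 4.5% lower). In the naive-like cluster 6 it was at 222.6 and 172.4 CPM, a ratio of -0.37 (-0.60 to -0.14; 3.1% lower). Cluster 8, of extraembryonic endoderm-like cells, went the other way on 2 and 9 UMIs, with a ratio of 2.17 (0.14 to 5.67; 2.59% higher).

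The other 3 genes were less even across clusters. Sp3 was lower in 9 of 9 clusters and passed in 3 of them, at -0.27 in cluster 1, -0.34 in cluster 3 and -0.51 in cluster 6. Klf9 was lower in 8 and passed in 3, with -0.50 (-0.68 to -0.32) in cluster 3, -0.55 (-0.87 to -0.23) in cluster 5 and -1.06 (-1.68 to -0.48) in cluster 4, a cluster of low UMI totals where 2.82% of genes were lower. Klf6 was lower in 7 and passed in cluster 3, at -0.51 (-0.86 to -0.18), and cluster 8, at -0.81 (-1.48 to -0.19), where 2.93% of genes were lower. In the streak-like cluster 0 Klf6 was at 20.3 and 19.7 CPM, so the ratio of -0.33 over all cells was not met there. Among the remaining members, Sp1 and Klf3 passed as lower in cluster 1, at -0.31 (-0.45 to -0.18) and -0.37 (-0.58 to -0.17). Klf4 passed as higher there, at 0.28 (0.04 to 0.52), beside 5.83% of genes lower and 4.6% higher. Klf3 was also lower in cluster 4, at -1.78 on 19 and 5 UMIs. Klf5 was higher in cluster 6, at 0.78 (2.7% of genes higher), and Sp2 and Sp4 passed in no cluster.

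**Figure D2:**
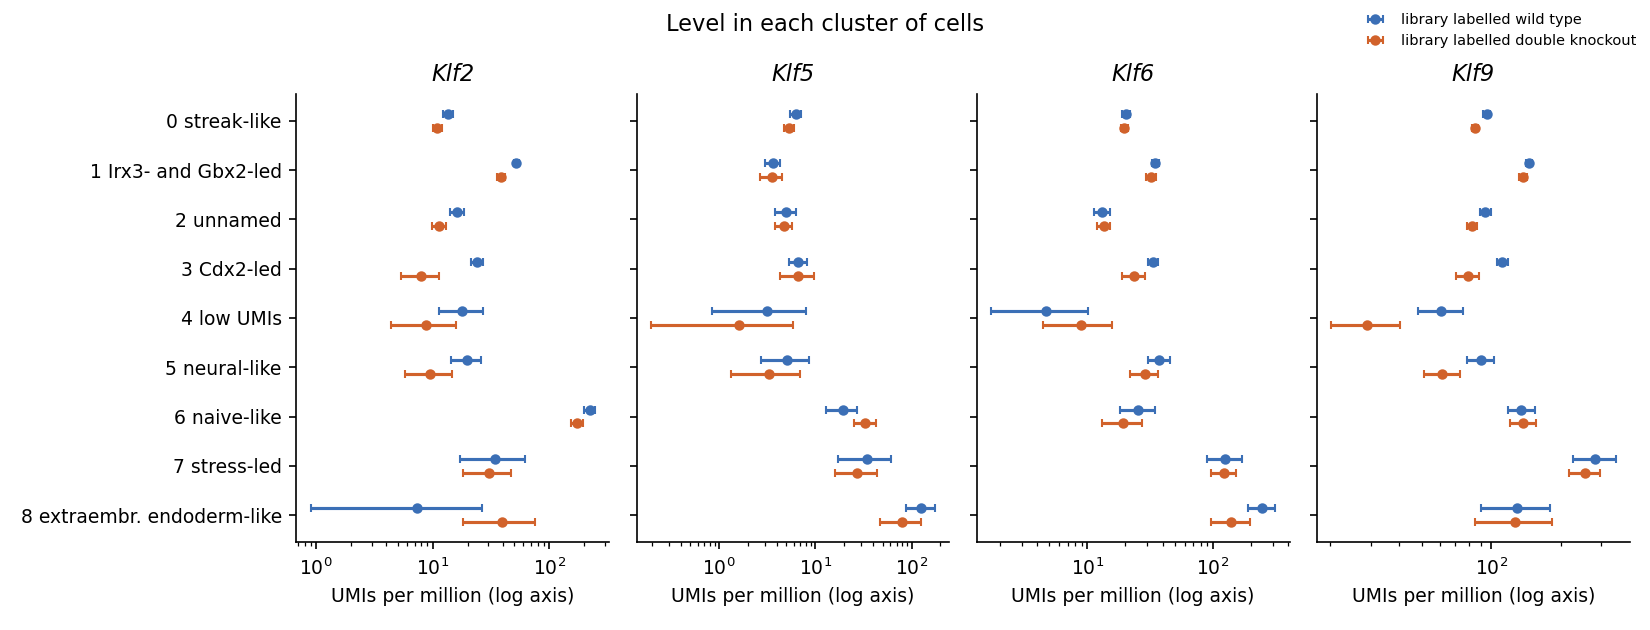
Klf2, Klf5, Klf6 and Klf9 in the 9 clusters of cells (points are CPM on log axes, bars are exact Poisson 95% intervals, colours are the libraries). Klf2 is highest in the naive-like cluster 6 in both libraries, Klf5 and Klf6 in cluster 8, and Klf9 in the stress-led cluster 7.

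Naive-like cells were compared with streak-like cells within each library. Klf2 stood out with a level 16.5-fold higher in naive-like cells in the wild-type-labelled library and 15.8-fold higher in the other, and Klf5 was also higher in both. These are descriptions, since the classes come from clusters of the same cells. At a limit of a log2 ratio of 1, 2 of 10 members passed as higher in each library and 0 as lower, beside 4.76% of all genes higher and 3.58% lower in the wild-type-labelled library and 5.54% and 3.76% in the knockout-labelled library.

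Klf2 was at 222.6 CPM in naive-like and 13.5 CPM in streak-like cells of the wild-type-labelled library, a log2 ratio of 4.04 (3.83 to 4.25). The levels in the knockout-labelled library were 172.4 and 10.9 CPM, a ratio of 3.98 (3.77 to 4.19). The contrast was thus nearly the same in both libraries although both levels were lower in the second. Klf5 was at 19.2 and 6.22 CPM in the wild-type-labelled library, a ratio of 1.65 (1.03 to 2.18), and at 33.2 and 5.30 CPM in the knockout-labelled library, a ratio of 2.66 (2.20 to 3.07). Klf4 did not share this pattern. It had 13 and 8 UMIs in the naive-like cells, 8.06 and 4.82 CPM, against 6.28 and 7.19 CPM in streak-like cells, with ratios of 0.41 (-0.58 to 1.17) and -0.49 (-1.80 to 0.42).

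Smaller differences in the same direction were seen between the clusters for Klf3, Klf9 and Sp1, whose ratios were 0.61, 0.50 and 0.34 in the wild-type-labelled library and 0.92, 0.69 and 0.53 in the knockout-labelled library. The ratios of Sp2, Sp3, Sp4 and Klf6 lay between -0.58 and 0.34, with intervals that held 0 in both libraries. Classes set by markers instead of clusters gave Klf2 ratios of 3.17 and 3.57, and a finer clustering gave 4.97 and 4.91. With the marker classes Klf5 was at 1.04 and 1.08 (-0.00 to 1.97) and no longer passed in the knockout-labelled library. Sp4 was at -1.74 (-3.80 to -0.52) there and passed as lower. Sp1 turned to -0.43 (-0.96 to 0.03) in that library, and Klf3 was at 0.08 (-0.70 to 0.73) and 0.43 (-0.24 to 0.99). The differences of Sp1 and Klf3 thus did not hold with marker classes, while Klf9 stayed higher at 0.56 and 0.37. With the finer clustering Klf3 passed in the knockout-labelled library, at 1.12 (0.66 to 1.53).

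**Figure D3:**
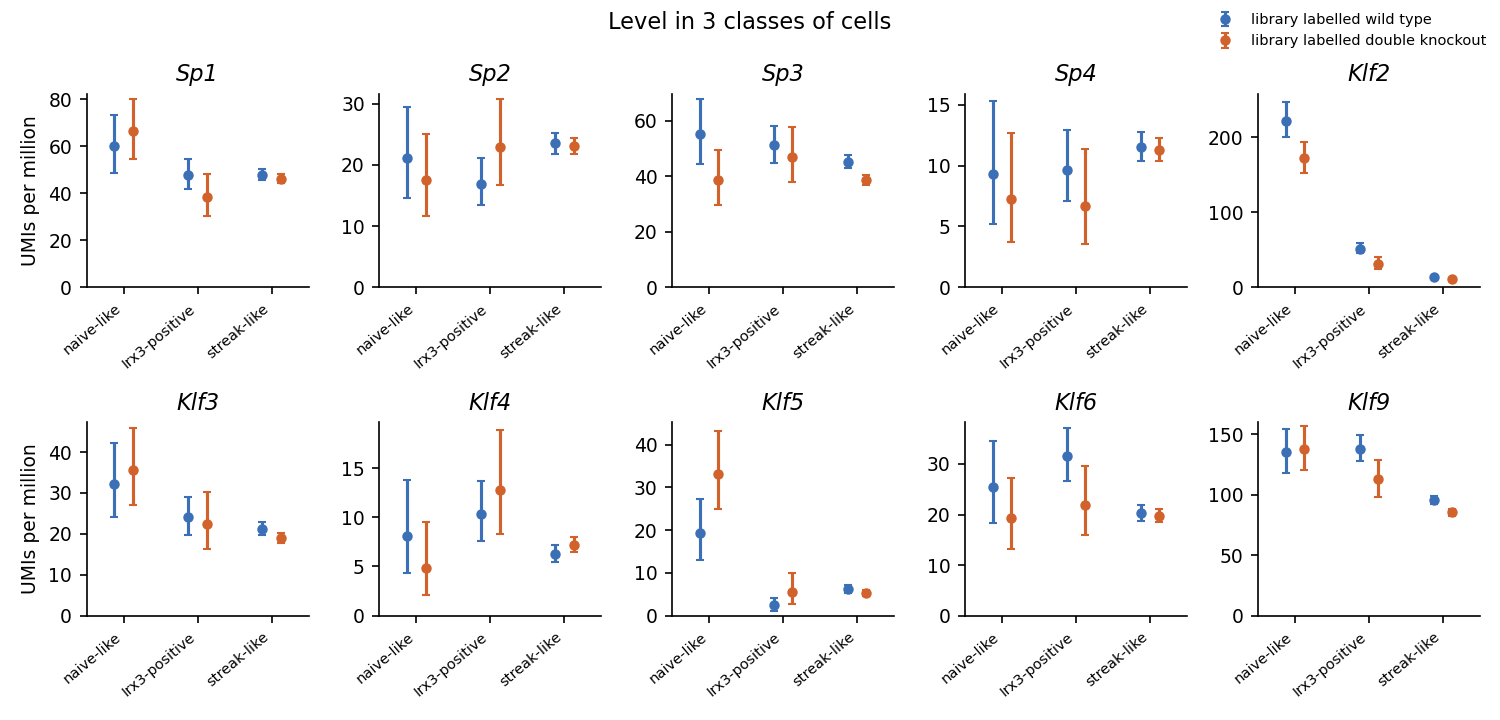
The 10 members in naive-like, Irx3-positive and streak-like cells (points are CPM on linear axes that start at 0, bars are exact Poisson 95% intervals, colours are the libraries). Klf2 steps down from naive-like to Irx3-positive to streak-like cells in both libraries, while Klf4 does not.

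Shares of cells with a UMI were taken after thinning to 2500 UMIs. Klf2 was found in 35.2% of naive-like cells (27.4 to 43.5) in the wild-type-labelled library and 27.9% (21.3 to 35.2) in the knockout-labelled library. The neural-like cells, used as the comparator for these naive factors, had 4.38% (2.28 to 7.53) and 1.87% (0.61 to 4.32). Median depths before thinning were 10219 and 8909 UMIs in naive-like and 8727.5 and 7530 UMIs in neural-like cells. Klf2 in naive-like cells was therefore well above the comparator, whereas its streak-like shares of 3.54% and 2.80% were within the comparator's intervals. Without thinning, 53.8% and 50.0% of naive-like cells had a Klf2 UMI.

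Klf5 was found in 4.83% (1.96 to 9.69) and 8.14% (4.52 to 13.3) of thinned naive-like cells against 0.73% (0.09 to 2.61) and 1.12% (0.23 to 3.25) of neural-like cells. Klf4 was found in 2.07% (0.43 to 5.93) and 0.58% (0.01 to 3.20) of naive-like cells against 1.46% and 1.87% of neural-like cells, with overlapping intervals, so its share could not be told from the comparator. At least 2 of Klf2, Klf4 and Klf5 were found together in 3 of 145 thinned naive-like cells (2.07%, 0.43 to 5.93) and 6 of 172 (3.49%, 1.29 to 7.44). In streak-like cells the same held for 0.083% and 0.085%.

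Free RNA was read from barcodes with at most 100 UMIs. It held Klf2 at 29.4 and 21.3 CPM, 0.91 and 1.15 times its level in cells. For the other members this ratio was 0.52 to 0.96 in the wild-type-labelled library and 0.36 to 0.83 in the knockout-labelled library. The Klf2 level of streak-like cells lay below that of free RNA in both libraries, and that of naive-like cells far above it. How much free RNA adds to the cell levels was not tested.

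Irx3-positive cells were compared with streak-like cells because Irx3 itself was lower in the knockout-labelled library, at 19.8 against 8.17 CPM. Klf2, Klf4 and Klf9 were higher in Irx3-positive cells of both libraries. In the wild-type-labelled library 4 of 10 members were higher and 2 lower, beside 8.21% and 6.58% of all genes. In the knockout-labelled library 3 were higher and 0 lower, beside 6.35% and 4.59%. The second comparison rests on 224 Irx3-positive cells and so has wider intervals. Cluster 1 held 70.0% and 52.7% of the Irx3-positive cells. Over all of its cells Klf2 was at 52.3 and 38.6 CPM, Klf4 at 11.2 and 13.5 CPM and Klf9 at 146.2 and 136.9 CPM. These levels were no lower than those of the Irx3-positive cells given below. Irx3-positive cells of cluster 0 had Klf2 at 15.7 and 15.1 CPM, on 8 and 6 UMIs. Whether the levels go with Irx3 or with cluster 1 was not tested.

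Klf2 was at 51.3 CPM in Irx3-positive and 13.5 CPM in streak-like cells of the wild-type-labelled library, a log2 ratio of 1.93 (1.69 to 2.16). It was at 31.2 and 10.9 CPM in the knockout-labelled library, a ratio of 1.52 (1.10 to 1.89). Irx3-positive cells thus lay between the naive-like and streak-like cells in Klf2 level. Klf4 was at 10.3 and 6.28 CPM, a ratio of 0.73 (0.23 to 1.18), and at 12.8 and 7.19 CPM, a ratio of 0.86 (0.18 to 1.41). With likely doublets removed the second ratio was 0.67 (-0.11 to 1.31) and did not pass. Klf9 was at 138.1 and 95.8 CPM, a ratio of 0.53 (0.40 to 0.65), and at 112.9 and 85.3 CPM, a ratio of 0.41 (0.20 to 0.60).

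Klf5 went the other way in the wild-type-labelled library. It had 11 UMIs in the Irx3-positive cells, or 2.36 CPM, against 6.22 CPM in streak-like cells, a ratio of -1.34 (-2.42 to -0.53). In the knockout-labelled library it was at 5.62 and 5.30 CPM, a ratio of 0.15 (-0.94 to 0.95), whose interval overlaps the first. Sp2 was lower in the wild-type-labelled library at -0.46 (-0.83 to -0.14) and at 0.01 (-0.47 to 0.42) in the other. Klf6 was higher at 0.64 (0.37 to 0.90) and at 0.17 (-0.32 to 0.59). With streak cells chosen by a T UMI instead, the Klf6 and Sp2 ratios in the wild-type-labelled library were 0.29 (-0.03 to 0.60) and -0.31 (-0.72 to 0.08), and neither passed. Sp4 then passed as lower in the knockout-labelled library, at -0.89 (-1.88 to -0.11). None of these differences between the libraries' contrasts was tested.

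The thinned Klf2 share in Irx3-positive cells was 13.2% (10.1 to 16.9) in the wild-type-labelled library and 6.25% (3.46 to 10.3) in the knockout-labelled library. Another random seed gave 9.13% and 9.38%, so no order of the libraries can be read from this share. Without thinning the shares were 36.1% and 21.4% at median depths of 10381 and 7804.5 UMIs.

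The libraries were then compared within each class. Klf2 was the only member lower in all 3 classes by the criterion. Its ratio was -0.37 (-0.60 to -0.14) in naive-like cells, -0.71 (-1.15 to -0.31) in Irx3-positive cells and -0.31 (-0.49 to -0.12) in streak-like cells. The Irx3-positive class mixed clusters differently in the libraries. Cluster 1, where Klf2 was high, held 70.0% of its cells in the wild-type-labelled library and 52.7% in the knockout-labelled library, and cluster 0, where it was low, held 10.1% and 16.5%. In the Irx3-positive cells of cluster 1 alone Klf2 was at 61.3 and 44.1 CPM, a ratio of -0.46 (-0.97 to -0.01), and in those of cluster 0 it was at -0.03 (-1.86 to 1.66) on 8 and 6 UMIs. The ratio of -0.79 over all cells was larger than in the naive-like and streak-like classes taken alone. The libraries also differed in cluster shares. Of all cells, cluster 1 held 32.9% in the wild-type-labelled library and 17.2% in the other, and cluster 0 held 28.0% and 44.5%. With equal cluster weights the Klf2 ratio was -0.47, as given above.

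In naive-like cells Sp3 was also lower, at 55.2 and 38.6 CPM with a ratio of -0.51 (-1.0 to -0.04), and Klf5 was higher, at 19.2 and 33.2 CPM with a ratio of 0.78 (0.13 to 1.47). That is 2 members lower and 1 higher, beside 3.1% and 2.7% of all genes. In Irx3-positive cells Klf6, at -0.51 (-1.05 to -0.02), and Klf9, at -0.29 (-0.52 to -0.07), were lower beside Klf2, 3 members against 3.7% of all genes. In streak-like cells Klf2 alone passed, 1 member against 5.53% of all genes, and Sp3 and Klf9 were at -0.23 and -0.17. Without cells low in chromosome 6 or 11 transcripts, Klf2 was at -0.07 (-0.32 to 0.19) in naive-like cells and did not pass, while in Irx3-positive and streak-like cells it was at -0.69 and -0.35. The number of members passing was then 1 in naive-like and 1 in Irx3-positive cells. With doublets removed it was 1 in naive-like and 2 in streak-like cells.

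**Figure D4:**
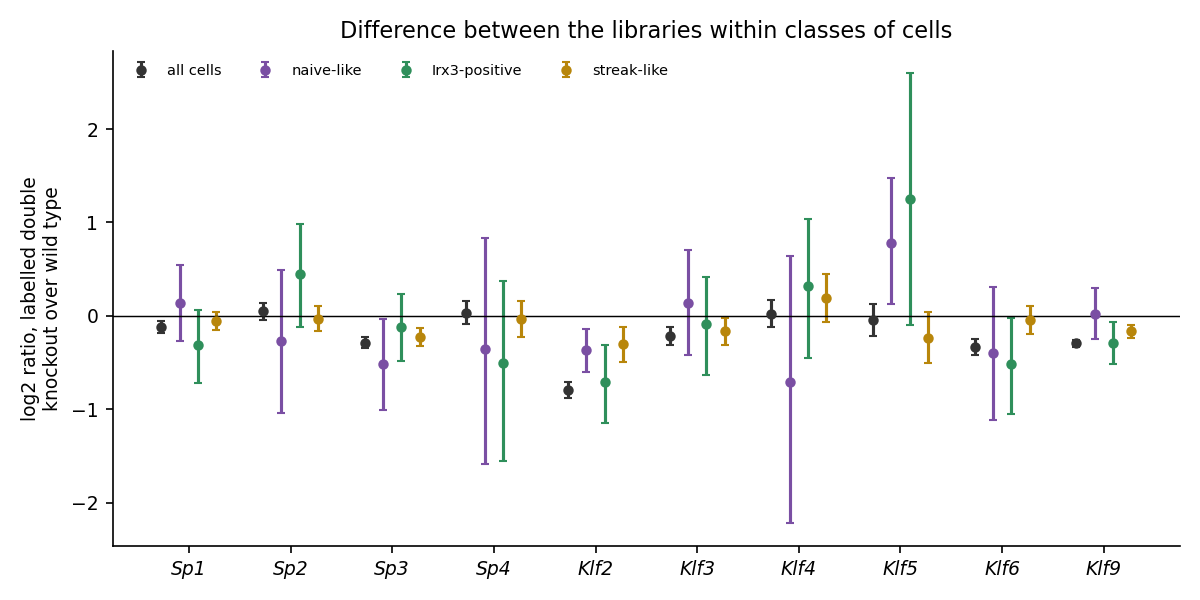
Log2 ratio of the knockout-labelled library over the wild-type-labelled library for each member over all cells and within 3 classes (points are ratios, bars are exact conditional 95% intervals). Klf2 lies below 0 in all 4 sets, from -0.79 over all cells to -0.31 in streak-like cells, and Klf5 lies above 0 with its interval in naive-like cells.

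Cells with and without an Sp5 UMI after thinning were compared within each library, since the members can bind the sites that Sp5 binds. Sp5-positive cells had at least 1 such UMI, 1921 of 8707 cells in the wild-type-labelled library and 6193 of 10587 in the knockout-labelled library. Sp5-negative cells still held Sp5, at 69.4 and 197.9 CPM, against 247.9 and 673.2 CPM in Sp5-positive cells. Before thinning, 55.5% and 84.8% of all cells had an Sp5 UMI. Many Sp5-negative cells thus had Sp5 UMIs that the random draw left out. Klf2 was lower in Sp5-positive cells, at 26.9 against 33.7 CPM, a ratio of -0.32 (-0.45 to -0.19), in the first library. It was at 15.9 against 22.4 CPM, a ratio of -0.49 (-0.63 to -0.36), in the second. Klf2 was the 1 member of 10 that passed in the wild-type-labelled library, where 1.88% of all genes were lower and 0.999% higher.

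In the knockout-labelled library 3 of 10 passed as lower, beside 3.72% of all genes, and 1.79% of genes were higher. The others were Klf3, at 16.5 and 19.7 CPM with a ratio of -0.25 (-0.39 to -0.11), and Klf5, at 4.85 and 6.73 CPM with a ratio of -0.47 (-0.72 to -0.22). Sp1, Sp2, Sp3, Sp4, Klf4, Klf6 and Klf9 did not pass in either library. Naive-like cells, highest of the 3 classes in Klf2 and Klf5, were less often Sp5-positive, at 6.90% and 20.3% against 22.1% and 58.5% of all cells. They held 11.5% and 15.8% of all Klf2 UMIs and 5.51% and 10.0% of all Klf5 UMIs, against 1.66% and 1.70% of all UMIs. The part of this mix in the ratios was not tested. Differences between Sp5-positive and Sp5-negative cells were smaller and did not pass within 1 class or with a stricter gate. Within streak-like cells alone 0 members passed in either library, with Klf2 at -0.15 (-0.51 to 0.18) and -0.21 (-0.46 to 0.04). With at least 2 thinned Sp5 UMIs 0 passed, with Klf2 at -0.18 (-0.46 to 0.07) and -0.24 (-0.40 to -0.10).

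Some cells had few transcripts from chromosome 11, where Sp2 lies, and this moved with library and class. A cell was counted as low when its share of UMIs on the chromosome was under 0.8 times the median, which held for 17.7% of cells in the wild-type-labelled library and 5.82% in the knockout-labelled library. Such cells made up 92.8% and 86.6% of cluster 3. Sp2 was at 15.7 CPM in low cells and 21.9 CPM in the others of the wild-type-labelled library, a ratio of -0.48 (-0.68 to -0.28). In the knockout-labelled library it was at 16.4 and 21.9 CPM, a ratio of -0.41 (-0.76 to -0.10). The median of 664 genes on chromosome 11 was -0.50 and -0.53, close to the Sp2 ratios. Sp2 and these genes are part of the share that set the gate. Lower values in these cells therefore follow from how the cells were chosen.

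Members on other chromosomes also differed in the cells low on chromosome 11, and they are given after their values were seen. These low cells numbered 1537 and 616. Most cells of cluster 3, which had 1211 and 462 cells, were among them. A difference of low cells was thus not told apart from a difference of cluster 3. Klf6 was higher, with ratios of 0.66 (0.52 to 0.79) and 0.57 (0.31 to 0.80), as was Klf5, with 0.69 (0.39 to 0.98) and 0.83 (0.35 to 1.25). Sp3 was at 0.37 and 0.27. Klf2 had opposite signs: 38.6 against 31.0 CPM in the wild-type-labelled library, a ratio of 0.32 (0.18 to 0.45), and 11.6 against 18.9 CPM in the other, a ratio of -0.69 (-1.12 to -0.32). Without cells low on chromosome 6 or 11 the ratio between the libraries was -0.78 for Klf2, -0.36 for Klf6, -0.27 for Klf9 and -0.01 for Sp2. Sp3, at -0.23, was the 1 member that no longer passed.

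**Figure D5:**
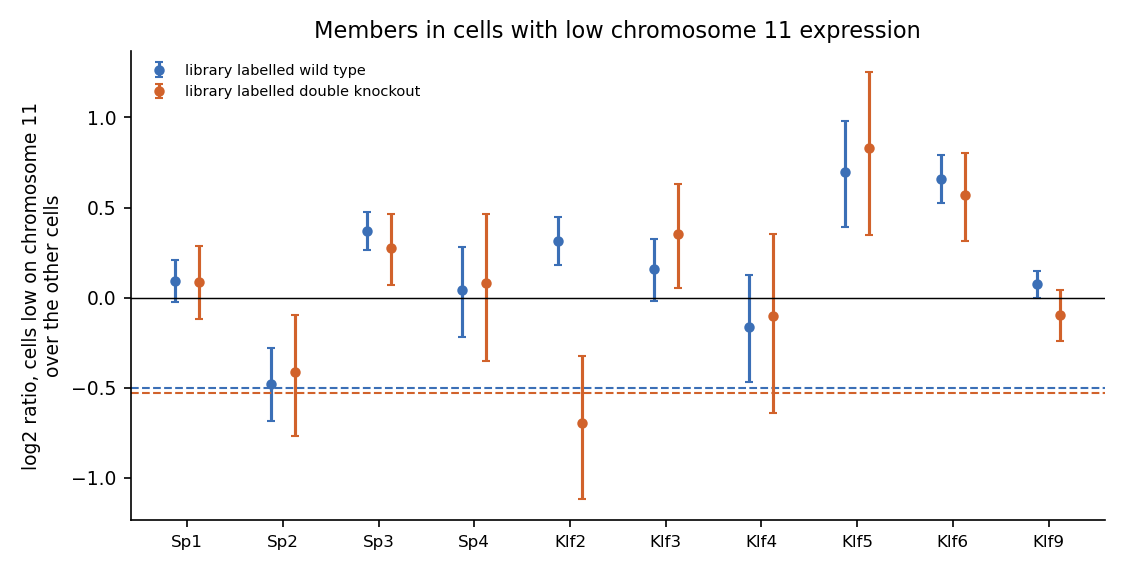
Log2 ratio of each member in cells low in chromosome 11 transcripts over the other cells of the same library (points, with exact conditional 95% intervals; dashed lines are the medians of 664 chromosome 11 genes). Sp2, the member on chromosome 11, lies near the dashed lines in both libraries, Klf5 and Klf6 lie above 0, and Klf2 lies on opposite sides of 0. The cells were chosen by chromosome 11 transcripts, Sp2 among them, so the low values of Sp2 and the dashed lines follow from the gate.

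Other genes of the families and of their partners were compared between the libraries. Of 14 further Sp and Klf genes 11 were tested, and 5 were lower and 0 higher, beside 7.84% and 5.02% of all genes tested. Their median was -0.25. The largest difference was that of Sp9, the closest relative of Sp8, at 2.52 and 1.17 CPM with a ratio of -1.11 (-1.44 to -0.78). Klf12, a repressor, was at 2.72 and 1.85 CPM with a ratio of -0.55 (-0.83 to -0.27). Klf11, a TGF-beta inducible factor, followed at -0.47 (-0.63 to -0.32) and Sp6 at -0.33 (-0.49 to -0.17).

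Of 10 tested genes of cofactors, 1 was lower and 0 higher, near the 7.84% and 5.02% of all genes, with a median of -0.07. That 1 was Hdac2, a histone deacetylase, at 150.1 and 126.2 CPM with a ratio of -0.25 (-0.29 to -0.22), and next came the acetyltransferase gene Ep300 at -0.24 (-0.30 to -0.18). Of 7 tested genes for other binders of GC-rich sites 0 passed, beside 12.9% of all genes in either direction, with a median of 0.04. Patz1 was at -0.15 and Vezf1 at 0.13, the largest differences in that list.

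Klf2, Klf4 and Klf6 are also known to be induced by cell dissociation, and genes of that response were compared. Of 14 tested, 2 were higher and 5 lower in the knockout-labelled library, beside 5.02% and 7.84% of all genes. Their median was -0.11 and their summed level was 936.9 and 896.5 CPM. Atf3 was at 0.60, Nr4a1 at -0.58 and Btg2 at -0.36. The summed level was 797 and 715 CPM in naive-like, 1037 and 1017 CPM in Irx3-positive and 874 and 884 CPM in streak-like cells. Stress markers summed to 184.6 and 254.9 CPM, with 3 of 6 higher and 0 lower, beside 5.02% and 7.84% of all genes. The part of dissociation and stress in the member ratios was not tested.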

How the data were processed

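For each library the authors deposited raw UMI counts, with no normalization, over 6794880 barcodes. The labels name Cell Ranger 8.0.1, and the submitters' processing notes list STAR 2.7.9a, STARsolo, Seurat 5.1.0 and mm10, with no order given. Counts were summed over kept cells, or over the cells of a class or cluster, and scaled to CPM by the summed total. Log2 ratios used a pseudocount of 0.5 counts and the exact conditional 95% interval of 2 Poisson sums. Shares carry exact Clopper-Pearson intervals. The intervals cover counting error only.

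Clusters came from the Leiden method (scanpy 1.11.5) on 2000 variable genes, 30 principal components, 15 neighbours and resolution 0.5. Doublets were kept, and their removal (6.96% and 8.47% of cells, by a Scrublet-type score) was an alternative. Naming used marker lists with a 1.5-fold rule, leaving Irx3 out of the neural markers after the clusters were seen. The script was tested on simulated data. TMM scaling used edgeR 4.0.16 and size factors DESeq2 1.42.0. Gene IDs matched GENCODE M21 for 99.6%.

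The members and lists were chosen with earlier results of these data known. The genes named were the members, Sp5, Sp8, the 2 to 4 largest differences per list, and the 3 genes most like each of the 3 most variable members over clusters. Leading genes name clusters.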

Additional observations from a re-analysis of the deposited data

How the results depend on the processing

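The number of members passing between the libraries was 4 and stayed between 3 and 4 under other scalings, cell filters and weights per cell. It was 1 with equal cluster weights and 1 with a log2 limit of 0.5. The median of the members lay between -0.25, over genes with at least 10 CPM, and -0.12. In Sp5-positive cells 0 members passed with at least 2 thinned Sp5 UMIs, and 0 within streak-like cells, in each library. The median share of cells with a member UMI was 5.81% and 4.55% after thinning, and 20.7% and 15.4% with all UMIs. The counts for the naive-like and Irx3-positive comparisons stayed within 1.5 times their values, but not always with the same members: with marker classes in the knockout-labelled library the 2 were Klf2 and, as lower, Sp4 in place of Klf5. Within naive-like cells the number passing was 1 with doublets removed and 1 without cells low in chromosome 6 or 11 transcripts, and within Irx3-positive cells it was 1 in the second setting. Within streak-like cells it was 2 with doublets removed. No result changed sign while passing the criterion. Of the values for single genes, counts within a class and shares, 368 moved little and 58 moved beyond their interval or 1.5 times. No paired analysis was possible because each genotype has 1 library.

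With 1 library per genotype, differences between cultures, between library preparations and between genotypes cannot be told apart. Depth limits Sp4, Klf4 and Klf5, which rest on 8 to 55 UMIs in the naive-like cells and on 11 to 48 in the Irx3-positive cells.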

Other observations

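A pair of small clusters had the highest levels of several Klf genes and lay almost wholly outside the 3 classes, with 1 and 3 of their cells Irx3-positive in the wild-type-labelled library and 0 in the other. Cluster 7, 39 and 85 cells in which the stress genes Ddit3 and Pmaip1 were among the leading genes, had Klf6 at 124.9 CPM (89.3 to 170.1) in the wild-type-labelled library and 123.1 CPM (97.1 to 153.8) in the knockout-labelled library. Klf9 was at 281.1 and 254.1 CPM and Klf5 at 34.4 and 27.2 CPM there. The libraries did not differ in these genes by the criterion. Cluster 8, 24 and 22 extraembryonic endoderm-like cells led by Spink1, Ttr and Cubn, had Klf4 at 122.2 and 79.0 CPM, Klf5 at 125.9 and 79.0 CPM and Klf6 at 248.1 and 140.5 CPM. Klf4 was at 13.5 CPM or lower in the other 8 clusters. Klf4 and Klf5 UMIs there numbered 33 and 34 in the first library and 18 and 18 in the second.

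Sp2 varied least over the 15 sums of a cluster in a library with at least 50 cells, from 14.5 to 24.8 CPM, and Klf2 most, from 7.91 to 222.6 CPM. Cluster 4, with median totals of 3674 and 3221 UMIs, was low in most members: Sp1 was at 9.33 and 6.43 CPM there against 45.3 and 41.7 CPM over all cells, while Sp2 was at 14.8 and 14.5 CPM.

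Over the same 15 sums and 7607 genes, the genes most like Klf2 in log2 level were Zfp1 (Pearson r 0.87), Nfkbia (0.85) and Hspb1 (0.85). Those most like Klf6 were Cpsf3 (0.94), Snx30 (0.94) and Ccnl2 (0.93), and those most like Klf5 were Zfp110 (0.95), Glud1 (0.94) and Jup (0.93). These correlations are descriptions: the sums share libraries and depth, and cluster 4 is low and cluster 7 high in several of the members.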
